A study of Homo sapiens with 14 samples.

Results

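The microRNA miR-210-3p (entry hsa-miR-210-3p) was followed through 14 small RNA libraries of PANC-1, a long-established line of human pancreatic carcinoma cells. It is 1 of the 2848 entries of the deposited count table and was taken by its name, with no threshold on any measured value. Earlier results of these data were known when it was chosen. Some cells received 20 µg/ml of grape proanthocyanidins (PA), plant polyphenols built from linked flavanol units, for 3, 12 or 24 h. Others received DMSO for 0, 3, 12 or 24 h. Each of these 7 groups held 2 libraries, lettered A and B. All groups were the same line, grown as a monolayer in serum-containing medium under air with CO2, so none of them was a hypoxia group. The series' design text speaks of biological replication, but no label ties A and B to separate cultures, and p-values here measure the spread between libraries, which may be in part technical.

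miR-210 is the microRNA most regularly induced when oxygen is low. The hypoxia-inducible factor HIF-1 activates its gene, and the mature miR-210-3p represses ISCU, which builds iron-sulfur clusters for mitochondrial respiration, and other transcripts such as GPD1L and EFNA3. Raised miR-210 has been described in pancreatic tumours and in the blood of patients who carry them.

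The mature sequences are shown because the results turn on which arm of the hairpin was counted, and because the seed (bases 2 to 8, counted from 1 at the 5′ end, in capitals) sets which transcripts a miRNA can recognise. They come from RefSeq on GRCh38.p14, and both arms matched by name. miR-147b-3p is shown because its seed comes closest.
miR-210-3p: cUGUGCGUgugacagcggcuga
miR-210-5p: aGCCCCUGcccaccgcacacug
miR-147b-3p: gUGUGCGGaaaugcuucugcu
In the hairpin below, capitals mark the 5p arm (bases 28 to 49) and the 3p arm (bases 66 to 87).
MIR210 hairpin: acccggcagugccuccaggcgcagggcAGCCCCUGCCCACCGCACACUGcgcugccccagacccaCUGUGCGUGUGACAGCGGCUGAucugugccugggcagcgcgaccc
On GRCh38 the hairpin lies at chromosome 11, 568089 to 568198, minus strand, and miR-210-3p at 568112 to 568133. In GENCODE 29 it is covered by the long non-coding gene MIR210HG (565660 to 568457, same strand), in an intron of its transcripts and in no exon. Among 2370 distinct mature miRNA names in the RefSeq table, 0 others shared bases 2 to 8 with miR-210-3p. One, miR-147b-3p, shared bases 2 to 7 and differed at base 8 as U8G; it lies at chromosome 15, 45433098 to 45433118, plus strand. That looser match was looked for after the values were seen.

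Library totals lay between 1032391 and 3111014 counts (median 2076388). Levels are given in CPM, the count over its library's total on a common scale. For CPM that total was taken over the 810 entries tested and adjusted by a TMM factor. Both DMSO 12 h libraries were set apart from the others across the table. On the first principal component of log2 CPM (21.5% of the variance) they lay at 14.02 and 22.76, and the other 12 libraries lay between -5.60 and 1.18. Libraries A and B of every group differed by more than sampling noise, with a chi-square over degrees of freedom from 13.4 in DMSO 3 h to 76.6 in DMSO 12 h. The carcinoma-associated miR-21-5p, miR-100-5p and miR-221-3p together made up 267960.09 to 356726 CPM. Summed acinar and islet markers (miR-216a, miR-216b, miR-217, miR-375; 4 of 4 in the table) reached at most 10.2 CPM, haematopoietic markers (4 of 4) at most 6.37 CPM and liver miR-122-5p at most 1.17 CPM. Summed markers of other sources were higher, at 395 to 844 CPM for fibroblast and endothelial miRNAs and 297 to 592 CPM for red cell miRNAs.

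miR-210-3p was an abundant but not a leading miRNA. It ranked 39th to 74th among the 2346 entries with a human miRNA name, on 901 to 6194 counts per library. Counting error alone, as an exact 95% Poisson interval, was at most 6.75% of the value, and it may be understated because PCR copies are not independent molecules. The highest library exceeded the lowest 3.06-fold. No other entry had the same counts in every library.

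miR-210-3p measured 1489 CPM (A) and 1666 CPM (B) in PA 3 h, 2509.96 and 2277 CPM in PA 12 h, and 2486 and 2467 CPM in PA 24 h. In DMSO it measured 2006.8 and 1502 CPM at 0 h, 1458 and 1381 CPM at 3 h, 1041 and 820 CPM at 12 h, and 2422 and 1908 CPM at 24 h. The PA libraries of 12 and 24 h were high, and the DMSO 12 h libraries were the lowest of all 14. An entry whose DMSO 12 h libraries lay below each of the other 12 was not rare: 8.4% of the 810 entries tested did so.

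**Figure D1:**
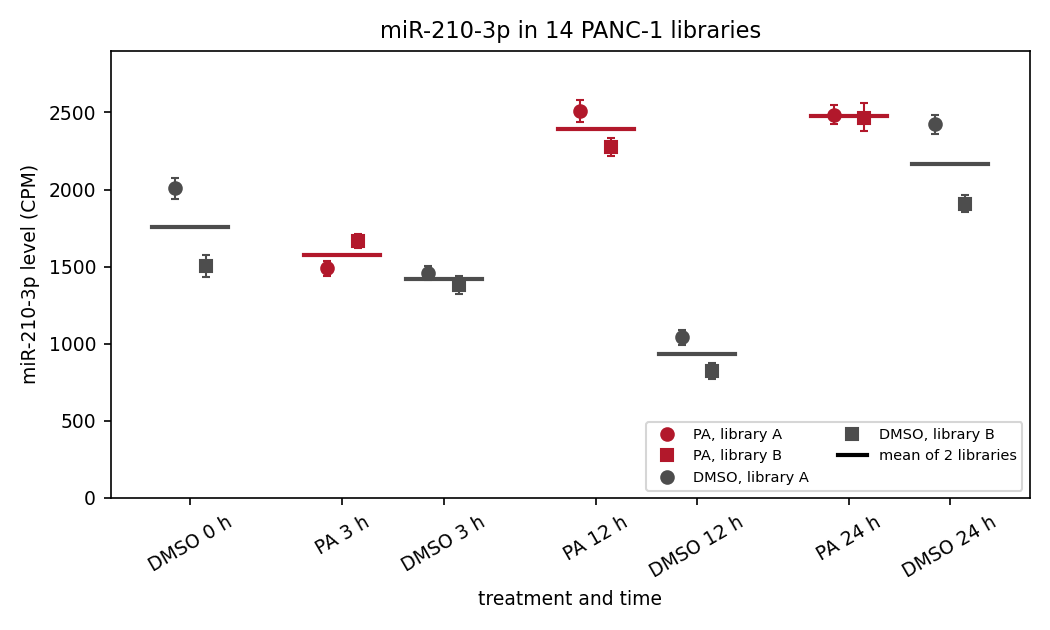
miR-210-3p level in CPM on the y axis for each library (circle A, square B) by treatment and time on the x axis; bars are exact 95% Poisson intervals (counting error only) and lines are means of 2 libraries. PA is red and DMSO grey: the DMSO 12 h libraries sit at 1041 and 820 CPM, below the other 12.

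The groups were ordered by mean level, and each mean is given with its SD over 2 libraries. PA 24 h came first at 2476 ± 13.6 CPM, before PA 12 h at 2394 ± 165 CPM and DMSO 24 h at 2165 ± 363 CPM. DMSO 0 h followed at 1754 ± 357 CPM, then PA 3 h at 1577 ± 125 CPM. DMSO 3 h had 1419 ± 54.6 CPM and DMSO 12 h 931 ± 156 CPM. From PA 24 h down to PA 3 h, the libraries of each group overlapped those of the next, so these neighbours did not differ beyond their spread. PA 3 h and DMSO 3 h did not overlap but lay only 1.11-fold apart. The one wide step between neighbours was the last, 1.52-fold from DMSO 3 h to DMSO 12 h, again with no overlap.

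At 12 h miR-210-3p was higher with PA than with DMSO. Its 2509.96 and 2277 CPM in PA 12 h, against 1041 and 820 CPM in DMSO 12 h, gave a log2 fold change of 1.36 ± 0.19 (SE; 2.57-fold; edgeR adjusted p = 0.000353 over 810 entries). It stood 5th of the 810 by p-value. At this time 11.1% of entries passed the threshold of 0.05 in either direction and 6.3% passed as higher with PA, while 25.3% had both PA libraries above both DMSO libraries. An exact permutation of 2 libraries against 2 cannot go below p = 0.333. With the spread taken from the PA 12 h and DMSO 12 h libraries alone, PA against DMSO at 12 h was 1.34 ± 0.24 and still passed (edgeR adjusted p = 0.0167).

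At 3 and 24 h miR-210-3p did not pass. At 3 h its 1489 and 1666 CPM in PA, against 1458 and 1381 CPM in DMSO, gave 0.15 ± 0.18 (edgeR adjusted p = 1), with 0.247% of entries passing. At 24 h its 2486 and 2467 CPM in PA, against 2422 and 1908 CPM in DMSO, gave 0.19 ± 0.18 (edgeR adjusted p = 0.591), with 6.67% passing. The PA libraries lay above the DMSO libraries in TMM-scaled CPM at both times. This was a common outcome, as 16.7% of entries did so at 3 h and 25.6% at 24 h. At 24 h it depended on the TMM factor. Over the plain library total (the deposited TPM), PA 24 h had 2199.56 and 2369.64, against 2563 and 1972 in DMSO 24 h. DMSO 24 h A then lay above both PA libraries.

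The DMSO groups were also compared with each other. Time and any other difference of the DMSO 12 h libraries cannot be told apart here. Relative to DMSO 0 h, miR-210-3p fell at 12 h (1041 and 820 CPM, against 2006.8 and 1502 CPM), a log2 fold change of -0.91 ± 0.19 (edgeR adjusted p = 0.00499; 12.7% of entries passed). It did not pass in DMSO 3 h (-0.31 ± 0.18, edgeR adjusted p = 0.613), where 0% of entries passed by edgeR, 0 passed by DESeq2 and 70 had an unadjusted p under 0.05 by edgeR, or in DMSO 24 h (0.30 ± 0.18, edgeR adjusted p = 0.424; 3.58% passed). The fall at 12 h no longer passed without DMSO 0 h A (-0.72, edgeR adjusted p = 0.0665), or when the spread came from the DMSO 0 h and 12 h libraries alone (-0.85, edgeR adjusted p = 0.116).

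Set against DMSO 0, 3 and 24 h together, DMSO 12 h was lower, with a log2 fold change of -0.91 ± 0.16 (edgeR adjusted p = 0.00153), and 16.5% of entries passed. PA 12 h, set against the mean of DMSO 3 and 24 h, was at 0.45 ± 0.16 and did not pass (edgeR adjusted p = 0.324; 0.247% of entries passed). Against DMSO 24 h alone, a comparison added after the data were seen, PA 12 h was at 0.14 ± 0.18 (edgeR adjusted p = 0.901; 0.37% passed). Against DMSO 0 h, also added later, PA 12 h was at 0.45 ± 0.18 (edgeR adjusted p = 0.193; 3.21% passed) and PA 24 h at 0.50 ± 0.18 (edgeR adjusted p = 0.141; 3.58% passed). Of these comparisons of PA 12 h with controls, the one with DMSO 12 h passed and the other 3 did not. These comparisons share libraries and are not independent, and comparisons across times also differ in time in culture.

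Other measures were also looked at in DMSO 12 h, and not all of them set it apart. The summed fibroblast and endothelial miRNAs (5 of 5 in the table) were at 395 to 444 CPM there and at 496 to 844 CPM in the other groups. The summed red cell miRNAs (3 of 3) were at 540 to 592 CPM there and at 297 to 553 CPM elsewhere, so these ranges overlapped. Entries with no miRNA name took 3.09% and 2.32% of the counts in DMSO 12 h A and B, within the 1.65% to 3.17% of the series. DMSO 12 h B had the fewest counts of all libraries (1032391), and DMSO 12 h A had 1710798. Entries detected were the most in DMSO 12 h A (1734) and the fewest in DMSO 12 h B (1388). Spearman's correlation of A with B was lowest in this group (0.925). In bulk RNA, a change in the share of cells and a change per cell cannot be told apart, and the part of these measures in the miR-210-3p result was not tested.

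Within PA, no pair of times passed. miR-210-3p in PA 12 h (2509.96 and 2277 CPM) against PA 3 h (1489 and 1666 CPM) gave 0.60 ± 0.18 (edgeR adjusted p = 0.234). In that comparison 0% of entries passed by edgeR, 82 had an unadjusted p under 0.05, and 4 passed by DESeq2. PA 24 h against PA 3 h gave 0.65 ± 0.18 (edgeR adjusted p = 0.0589; 3.95% passed). PA 24 h against PA 12 h gave 0.05 ± 0.18 (edgeR adjusted p = 0.966; 2.22% passed). Thus both later PA groups lay above PA 3 h, with no overlap of libraries, as in 22.8% of entries for 12 h and 24.2% for 24 h. The value at 24 h against 3 h lies close to the threshold. It passed in 4 of 12 alternative settings, among them DESeq2 size factors (0.66, edgeR adjusted p = 0.0487), TMMwsp scaling (0.67, edgeR adjusted p = 0.0404) and the DESeq2 Wald test (0.66, DESeq2 adjusted p = 0.0169). In the other 8 it did not pass, such as upper quartile scaling (0.58, edgeR adjusted p = 0.141) and 3 reference miRNAs (0.51, edgeR adjusted p = 0.374). Nor did it pass in 12 of the 14 fits that left out 1 library. The 2 fits in which it passed left out DMSO 12 h A (0.66) or DMSO 12 h B (0.63). These libraries enter this comparison only through the pooled spread and scaling.

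The PA effect itself differed between the times. It was larger at 12 h than at 3 h by 1.21 ± 0.26 log2 units (edgeR adjusted p = 0.0282), where 1.23% of entries passed, and smaller at 24 h than at 12 h (-1.17 ± 0.26, edgeR adjusted p = 0.0125), where 8.64% passed. Between 24 and 3 h the difference was 0.04 ± 0.26 (edgeR adjusted p = 0.986; 1.23% passed). All differences that involve 12 h contain the low DMSO 12 h libraries. The difference between 12 and 3 h failed to pass in 6 of the 14 fits that left out 1 library. It was 1.02 without DMSO 12 h B (edgeR adjusted p = 0.0665) and 1.15 to 1.33 without PA 3 h A, PA 3 h B, PA 12 h A, DMSO 3 h A or DMSO 3 h B (edgeR adjusted p = 0.0576 to 0.134). The difference between 24 and 12 h failed to pass without DMSO 24 h A (-0.99, edgeR adjusted p = 0.0652). Scaled to 3 reference miRNAs, both missed the threshold (edgeR adjusted p = 0.249 for 12 against 3 h and 0.0663 for 24 against 12 h).

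**Figure D2:**
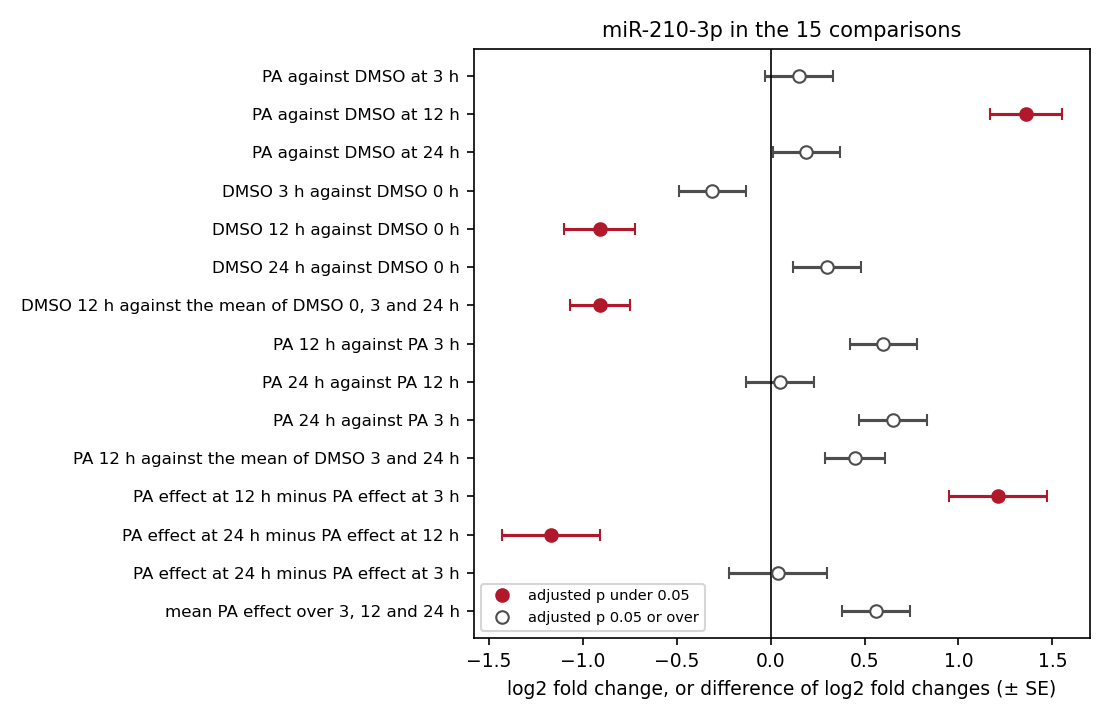
Log2 fold change of miR-210-3p, or difference of log2 fold changes, on the x axis (± SE, edgeR) for the 15 comparisons down the y axis. Filled red points passed an adjusted p of 0.05: PA against DMSO at 12 h (1.36), both comparisons that test DMSO 12 h against other DMSO groups (-0.91 each), and the differences of the PA effect that involve 12 h (1.21 and -1.17).

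Averaged over 3, 12 and 24 h with time as a factor, the PA effect on miR-210-3p was 0.56 ± 0.18 (log2) and did not pass over 808 entries (edgeR adjusted p = 0.19). In this fit 0% of entries passed by edgeR, 116 had an unadjusted p under 0.05, and 21 passed by DESeq2, miR-210-3p among them (0.57, DESeq2 adjusted p = 0.0497). The value was 0.20 without the 12 h libraries. For miR-210-3p in TMM-scaled CPM, the PA libraries lay above the DMSO libraries, with no overlap, at 3 of 3 times. Taken singly, 16.7% of entries did so at 3 h, 25.3% at 12 h and 25.6% at 24 h. The share that did so at all 3 times was not counted. The mean difference of miR-210-3p in log2 CPM was 0.58 (exact two-sided permutation p = 0.00926, treatment permuted within each time). This is the smallest p that 216 arrangements can give. Non-overlap in the same direction at all 3 times fixes it, so it repeats that result, and it is not adjusted over entries. On total counts, where the PA and DMSO libraries of 24 h overlapped, the difference was 0.51 (exact permutation p = 0.0648). With TMM but without the 12 h libraries it was 0.18 (exact permutation p = 0.0556, the smallest that 36 arrangements can give).

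The 5p arm was scarce. miR-210-5p had 287 counts over all libraries, against 52552 for miR-210-3p, a ratio of 183 3p counts to 1 5p count. It had 8.58 and 7.18 CPM in PA 12 h, against 3.99 and 19.1 CPM in DMSO 12 h, so the DMSO libraries lay on both sides of the PA libraries. The DMSO values rest on 7 counts (exact 95% Poisson interval 2.81 to 14.4) and 21 counts (13 to 32.1). DMSO 12 h B, which had the lowest miR-210-3p level of all libraries, had the highest miR-210-5p level, and its ratio of 42.9 was the lowest. In the other 13 libraries the ratio ran from 133 to 326. miR-210-5p did not pass at 3 h (0.51 ± 0.52, edgeR adjusted p = 1), 12 h (-0.45 ± 0.56, edgeR adjusted p = 0.658) or 24 h (-0.43 ± 0.52, edgeR adjusted p = 0.708), and without DMSO 12 h B its value at 12 h was 0.98.

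miR-147b, whose seed overlaps that of miR-210-3p, was less abundant, at 39.2 to 79 CPM. Its log2 fold changes with PA were 0.32 ± 0.23 at 3 h, 0.39 ± 0.24 at 12 h (edgeR adjusted p = 0.34) and 0.36 ± 0.24 at 24 h, and it did not pass.

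Other miRNAs reported to respond to low oxygen were described beside miR-210-3p as 3 lists. The first held 18 miRNAs that had been found hypoxia-regulated in cancer cell lines, all tested here. At 12 h, where 6.3% of all entries rose and 4.81% fell, 3 of the 18 rose with PA and 0 fell, with a median log2 fold change of 0.14, against -0.06 over all entries. The risers were miR-27a-3p (0.94 ± 0.14, edgeR adjusted p = 0.000472), its cluster partner miR-23a-3p (0.87, edgeR adjusted p = 0.00179) and miR-107, which lies in an intron of PANK1 (0.73, edgeR adjusted p = 0.0107). miR-27a-3p had 77398 and 81687 CPM in PA 12 h, against 45434 and 37460.44 CPM in DMSO 12 h, again with the DMSO 12 h pair below every other library. The calls of miR-27a-3p and miR-23a-3p held with each of the 14 libraries left out in turn, and that of miR-107 was lost without PA 12 h A (0.69, edgeR adjusted p = 0.0796). A count of 3 in 18 is a small one to set against that background. miR-21-5p, the most abundant of the list, was at -0.02.

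At 3 h 0 of the 18 passed, by edgeR or by DESeq2, and 0 fell below 0.05 by edgeR before adjustment. At 24 h, where 4.32% of entries rose and 2.35% fell, miR-27a-3p rose (0.55, edgeR adjusted p = 0.0246), and miR-93-5p (-0.68) and miR-106a-5p (-0.97), members of the miR-17 family, fell. These were fragile calls: of the 14 fits with 1 library left out, miR-27a-3p missed the threshold in 6, miR-93-5p in 9 and miR-106a-5p in 10. Without PA 24 h B, miR-93-5p was at -0.51 (edgeR adjusted p = 0.292) and miR-106a-5p at -0.72 (edgeR adjusted p = 0.262), and without DMSO 24 h B miR-27a-3p was at 0.54 (edgeR adjusted p = 0.163). miR-210-3p and miR-27a-3p thus both passed at 12 h, but of this pair only miR-27a-3p passed at 24 h; whether their changes between 12 and 24 h differ was not tested.

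Some of these miRNAs were low in the DMSO 12 h libraries too. Against the other DMSO times, where 7.65% of entries were lower and 8.89% higher, 5 of the 18 were lower: miR-27a-3p (-0.75), miR-23a-3p (-0.66), miR-107 (-0.56), miR-23b-3p (-0.50) and miR-30b-5p (-0.48). miR-192-5p was higher (0.54). In this comparison the list median was -0.31, against 0.03 over all entries, and 6 of the 18 had a positive log2 fold change. With 1 library left out, the calls of miR-27a-3p and miR-23a-3p held in all 14 fits. That of miR-107 was lost without DMSO 12 h A (-0.52, edgeR adjusted p = 0.0624), that of miR-23b-3p without DMSO 12 h B (-0.44, edgeR adjusted p = 0.0769), and that of miR-192-5p without DMSO 12 h B (0.44, edgeR adjusted p = 0.0772). miR-30b-5p lost its call in 3 fits, those that omitted DMSO 24 h B or either DMSO 12 h library (-0.48 to -0.45, edgeR adjusted p = 0.0527 to 0.0769). Scaled to 3 reference miRNAs, miR-192-5p was at 0.33 (edgeR adjusted p = 0.214). Set against the mean of DMSO 3 and 24 h, PA 12 h had 0 of the 18 passing by edgeR or DESeq2 (4 with an unadjusted edgeR p under 0.05), with a median of -0.05.

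The second list held 6 further miRNAs reported as induced by HIF or hypoxia, 5 of them tested. miR-301a-3p (1.03, edgeR adjusted p = 0.041) and miR-424-5p (0.88, edgeR adjusted p = 0.0168) rose with PA at 12 h, 2 of 5 beside 6.3% of all entries. The list's median at 12 h was 0.08, against -0.06 over all entries. At 3 and 24 h 0 of the 5 passed by edgeR or DESeq2 (0 and 1 with an unadjusted edgeR p under 0.05), beside 0.247% of all entries at 3 h and 6.67% at 24 h. With 1 library left out, miR-301a-3p missed the threshold in 6 of 14 fits (0.74 without DMSO 12 h A, edgeR adjusted p = 0.188) and miR-424-5p in 2, without DMSO 12 h A (0.72, edgeR adjusted p = 0.0731) and without PA 12 h A (0.78, edgeR adjusted p = 0.109). miR-424-5p had 1339.52 and 1121 CPM in PA 12 h, against 592 and 749 CPM in DMSO 12 h, and it was lower in DMSO 12 h than at the other DMSO times (-0.93, edgeR adjusted p = 0.00287). In that comparison, where 7.65% of all entries were lower and 8.89% higher, miR-191-5p was higher (0.73, edgeR adjusted p = 0.0168), on 34394 CPM in DMSO 12 h B and 16257 CPM in DMSO 12 h A, and without DMSO 12 h B it was at 0.09 (edgeR adjusted p = 0.782).

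The third list held 6 miRNAs reported to repress HIF1A, 5 of them tested. At 3 h 0 of the 5 passed by edgeR or DESeq2, and 0 did so before adjustment by edgeR. At 12 h, where 6.3% of all entries rose, 1 of the 5 did so, miR-138-5p (0.84, edgeR adjusted p = 0.038), but it missed the threshold in 8 of 14 fits with 1 library left out (0.71 without DMSO 12 h A, edgeR adjusted p = 0.147). At 24 h, where 2.35% of all entries fell, 3 of the 5 fell, with a list median of -0.84 against -0.01 over all entries: miR-18a-5p (-0.88, edgeR adjusted p = 0.00909), miR-17-5p (-0.80, edgeR adjusted p = 0.0158) and miR-20a-5p (-0.84, edgeR adjusted p = 0.0229), which come from 1 transcript. Without PA 24 h B, miR-18a-5p was at -0.75 (edgeR adjusted p = 0.0928), miR-17-5p at -0.59 (edgeR adjusted p = 0.218) and miR-20a-5p at -0.52 (edgeR adjusted p = 0.242), and without DMSO 24 h A or B none of the 3 passed. At that time miR-210-3p was at 0.19 and did not pass. In DMSO 12 h, where 7.65% of all entries were lower, miR-17-5p (-0.48) and miR-138-5p (-0.95) were lower than at the other DMSO times, and miR-17-5p lost that call in 11 of 14 fits with 1 library left out.

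**Figure D3:**
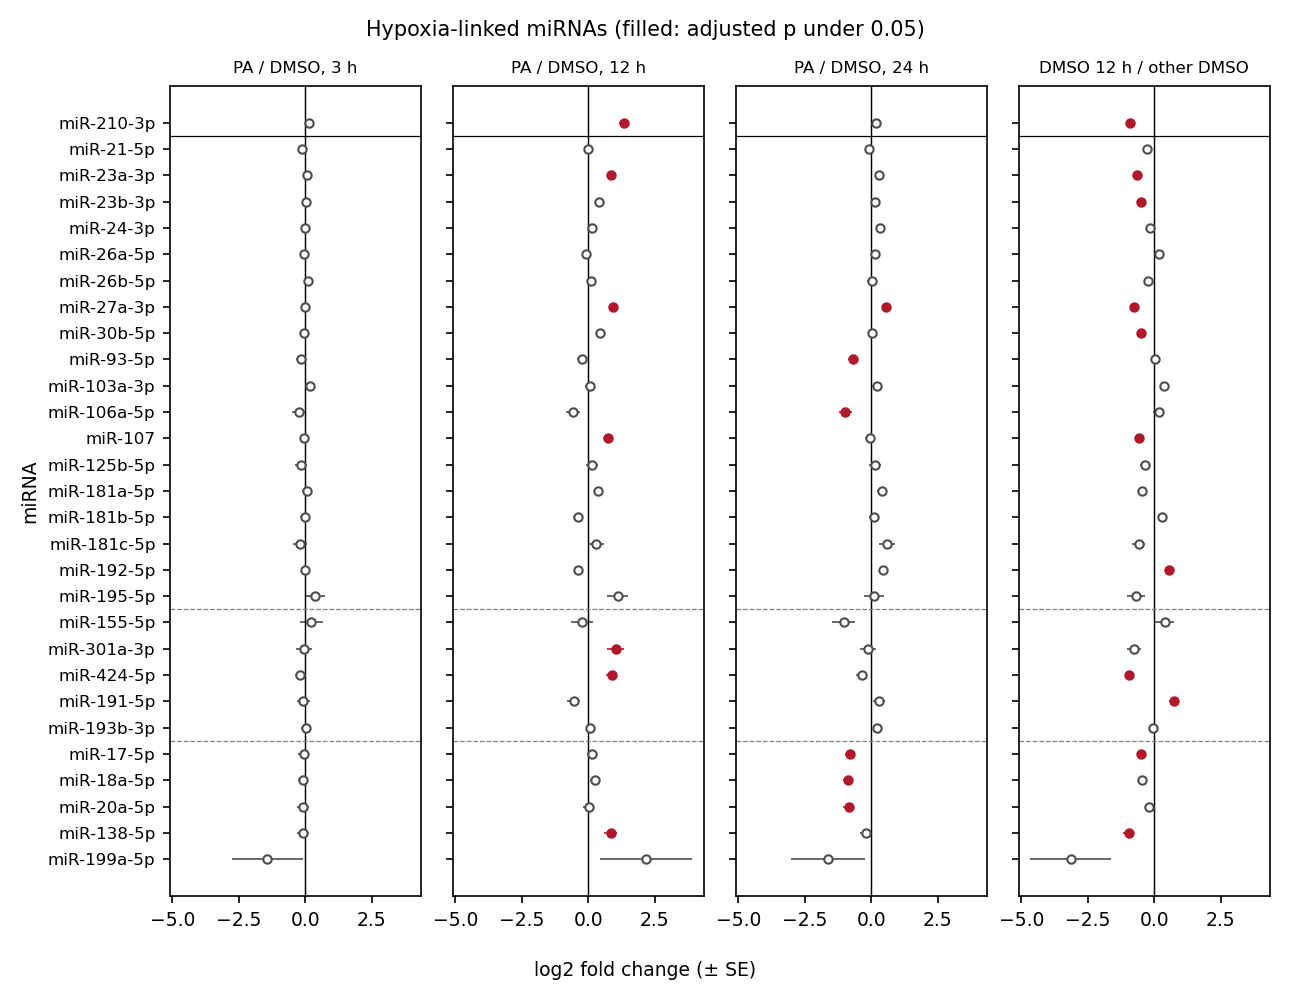
Log2 fold change (x axis, ± SE, edgeR) of miR-210-3p and the tested members of the 3 lists (y axis; dashed lines separate the lists) for PA against DMSO at 3, 12 and 24 h and for DMSO 12 h against the other DMSO times. Filled red points passed an adjusted p of 0.05; miR-210-3p, miR-23a-3p, miR-27a-3p, miR-107, miR-424-5p and miR-138-5p are filled to the right at 12 h and to the left in the last panel.

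The miRNAs whose levels ran most like miR-210-3p were found by Pearson's r of log2 CPM over the 14 libraries, among 236 other tested entries with a mean of at least 100 CPM. The libraries share groups, depth and the standing apart of DMSO 12 h, so r is a description. The highest were miR-33a-5p (0.93), from an intron of SREBF2, then miR-107 (0.86), miR-377-3p (0.86), miR-96-5p (0.85), miR-27a-3p (0.84), miR-320a (0.84), miR-183-5p (0.81) and miR-27b-3p (0.81). Over the 7 group means the highest were miR-33a-5p (0.93), miR-152-3p (0.93), miR-320a (0.91), miR-148b-3p (0.90) and miR-377-3p (0.90). The median r over the 14 libraries was 0.09. Without the DMSO 12 h libraries, an alternative added after the data were seen, 2 of the first 8 stayed among the 8 highest, miR-33a-5p at 0.81 and miR-320a at 0.75, and miR-27a-3p was at 0.55.

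miR-33a-5p was the closest match on both measures. It had 205 and 174 CPM in PA 12 h, against 67.2 and 54.6 CPM in DMSO 12 h, a log2 fold change of 1.63 ± 0.26 (edgeR adjusted p = 0.000776) that kept its call in all 14 fits with 1 library left out. In PA 24 h it had 192 and 196 CPM, against 170 and 106 CPM in DMSO 24 h. As for miR-210-3p, its lowest libraries were those of DMSO 12 h. Because miR-33a-5p was chosen by r over libraries that include this pair, its difference at 12 h follows in part from the choice. It is no separate support for the miR-210-3p result.

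The entries running most opposite to miR-210-3p were miR-128-3p (r = -0.87), miR-30d-5p (-0.80), miR-484 (-0.80) and miR-3184-3p (-0.78). miR-128-3p had 516 and 527 CPM in PA 12 h, against 777 and 673 CPM in DMSO 12 h, a log2 fold change of -0.48 ± 0.15 (edgeR adjusted p = 0.0497) that missed the threshold in 13 of 14 fits with 1 library left out. Its r stayed at -0.85 without the DMSO 12 h libraries, and that of miR-3184-3p was then -0.38.

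**Figure D4:**
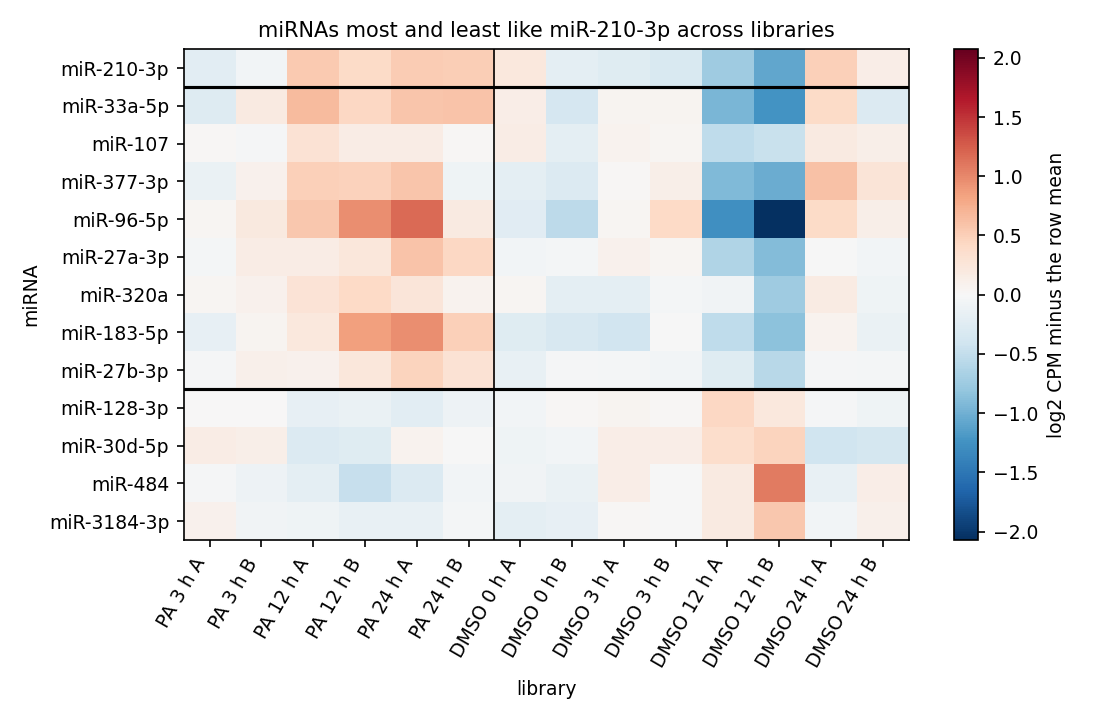
Log2 CPM minus the mean of its row (colour) for miR-210-3p, the 8 miRNAs with the highest and the 4 with the lowest Pearson's r to it (rows, split by lines), in the 6 PA and 8 DMSO libraries (columns). By group mean, DMSO 12 h is the lowest group in each of the first 9 rows and the highest in each of the last 4. The rows were chosen by r over libraries that include DMSO 12 h, so this shared pattern follows in part from the choice.

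Of 6 other miRNA hairpins within 2 Mb of MIR210, with 9 mature arms, 1 arm passed the filter on low counts. It was miR-7847-3p, at a mean of 1.91 CPM and a log2 fold change of -1.99 with PA at 12 h (edgeR adjusted p = 0.341). The nearest expressed miRNAs therefore gave no comparison for the locus at this depth.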

How the data were processed

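The authors deposited whole-number counts per mature miRNA entry for 14 libraries of total RNA, and a TPM table in which each deposited TPM value was the count over 1 total per library, with no length correction. The submitters' processing notes name bcl2fastq, Bowtie, edgeR and GRCh38, without versions; how reads with several matches were counted is not given in the sources used here. The labels' protocols name more than 1 read length and do not say which library had which, so an effect of read length was not tested. Each of the 28 value columns matched a library title. The 502 entries without a human miRNA name were not set aside. Those that passed the filter on low counts stayed in the tests and in the totals behind CPM.

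The quasi-likelihood F test of edgeR 4.0.16 (R 4.3.3; robust, TMM) was run after filterByExpr (counts of at least 10, total at least 15), which kept 810 of 2848 entries. All 14 libraries entered 1 fit by group. The mean PA effect used the 12 libraries of 3, 12 and 24 h with time as a factor. P-values were adjusted by Benjamini-Hochberg over all entries of a comparison, with a threshold of 0.05. The SE is the log2 fold change over the root of F. The fit was tested on simulated data. Alternatives included limma 3.58.1 on log2(TPM + 1) and DESeq2 1.42.0, and permutations ran in Python. Entries named beside miR-210-3p were its other arm, seed matches, hairpins within 2 Mb, list members that passed, and those with the 8 highest and 4 lowest r over libraries and the 5 highest over group means. miR-210-3p and the lists were chosen with earlier results of these data known.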

Additional observations from a re-analysis of the deposited data

Results flagged for a closer look

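The PA effect on miR-210-3p differed between times by a test of the difference itself: 12 h minus 3 h was 1.21 ± 0.26 log2 units (edgeR adjusted p = 0.0282), and 24 h minus 12 h was -1.17 ± 0.26 (edgeR adjusted p = 0.0125). The PA libraries had 1489 and 1666 CPM at 3 h, 2509.96 and 2277 CPM at 12 h, and 2486 and 2467 CPM at 24 h, and the DMSO libraries had 1458 and 1381, 1041 and 820, and 2422 and 1908 CPM at these times. Both differences contain DMSO 12 h, whose libraries also stood apart on the first principal component, and neither was repeated in other libraries of that time.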

How the results depend on the processing

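The difference in miR-210-3p between PA and DMSO at 12 h kept its direction and its call in the 12 alternative settings (1.30 to 1.47, highest edgeR adjusted p 0.0167). With each library left out in turn it ran from 1.21 to 1.55. All these fits still compare with DMSO 12 h, the lowest group. Against DMSO 0 h, DMSO 24 h or the mean of DMSO 3 and 24 h, PA 12 h did not pass. The level of DMSO 12 h against the other DMSO times kept its direction and call in the 12 settings too (-1.08 to -0.84). It ran from -1.08 to -0.75 with a library left out. With only the groups compared, DMSO 12 h against DMSO 0 h no longer passed (-0.85), and it ran from -1.09 to -0.72 with a library left out. PA 12 h against PA 3 h passed with only the groups compared (0.63), but not with any library left out (0.52 to 0.70). PA 24 h against PA 3 h passed with DESeq2 size factors (0.66), TMMwsp (0.67), the DESeq2 Wald test (0.66), the replicate block (0.65, edgeR adjusted p = 0.0493), and without DMSO 12 h A or B (0.59 to 0.72 over all libraries left out). It did not pass in the other 8 of the 12 settings, nor in 12 of the 14 fits with a library left out. PA 24 h against PA 12 h turned with total counts (-0.08), upper quartile (-0.04), no filter (-0.01) and limma on TPM (-0.08), and ran from -0.04 to 0.13 with a library left out. The PA effect at 24 h minus PA effect at 3 h turned with total counts (-0.16), upper quartile (-0.06), the 3 reference miRNAs (-0.05), no filter (-0.06) and limma on TPM (-0.15), from -0.11 to 0.23 with a library left out; neither passed in any of these fits. Scaled to miR-16-5p, miR-191-5p and miR-103a-3p, the PA effect at 12 h minus PA effect at 3 h (1.19) and the PA effect at 24 h minus PA effect at 12 h (-1.25) no longer passed; miR-191-5p itself differed 34394 to 16257 CPM between DMSO 12 h B and A. With a library left out, the first ran from 1.02 to 1.39 and the second from -1.35 to -0.99. The mean PA effect over 3, 12 and 24 h passed with no filter (0.60) and by the DESeq2 Wald test (0.57), and was 0.44 to 0.67 with a library left out. The exact test of the mean difference no longer passed with total counts (0.51), the 3 reference miRNAs (0.55) or without the 12 h libraries (0.18), which cannot reach 0.05, and ran from 0.52 to 0.63 with a library left out.

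The replicate block changed no other call for miR-210-3p (1.37 at 12 h); same-letter libraries of different groups did not deviate together (correlation -0.165 to 0.114 over 21 pairs of groups), and the letters were not taken as pairs. The number of entries past the threshold at 12 h was 90, and 33 to 94 over the other settings (33 with only the groups compared) and 34 to 107 with a library left out; at 24 h it was 54, with 29 to 75 and 12 to 71. Where a library was left out, the other of its group was assumed to vary like the rest. The cause of these changes was not tested. miR-210-5p: PA against DMSO at 12 h was -0.45, and -1.27 without DMSO 12 h A and 0.98 without DMSO 12 h B. With 2 libraries a group, differences of the size seen at 3 and 24 h could not be told from the spread.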
